A study of Mus musculus with 40 samples.

Results

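Dendritic cells take up antigen in a tumor and present it to T cells, and the genes that mark them were followed here in CT26 tumors of mice given antibodies against GARP:TGF-β1, TGF-β and PD-1. The set holds 10 genes, chosen by symbol among the 54087 genes of the count table: Xcr1, Clec9a, Batf3, Xcl1, Flt3, Zbtb46, Itgax, Cd209a, Fscn1 and Siglech. All 10 passed the filter on low counts and were among the 14760 genes tested.

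CT26, a colon carcinoma line of BALB/c origin, was implanted under the skin of 6- to 12-week-old BALB/c mice (1000000 cells on day 0). The mAbs were injected intraperitoneally on days 6, 9 and 12, and whole tumor fragments, with no cell sort, were collected on day 13. Each of the 40 libraries came from 1 mouse, with 5 mice in each of 8 groups. The control group received motavizumab, a mouse IgG2a (mIgG2a) isotype control mAb. The monotherapy groups received anti-GARP:TGF-β1 (clone 58A2) as mIgG2a WT, the same clone as FcD, an Fc-dead form that does not engage Fcγ receptors, anti-TGF-β (clone 1D11), which neutralizes TGF-β, or anti-PD-1 with an Fc-silent mIgG2a (FcS). The combination groups received anti-PD-1 FcS with anti-GARP:TGF-β1 WT, with anti-GARP:TGF-β1 FcD or with anti-TGF-β, and are written PD-1/WT, PD-1/FcD and PD-1/TGF-β. Total counts ran from 11931730 to 20680548 per library, with a median of 14030511.

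Conventional dendritic cells develop under the cytokine Flt3 ligand and fall into cDC1, which depend on the transcription factor Batf3 and excel at presenting antigen of dying cells to CD8+ T cells, and cDC2, which mainly prime CD4+ T cells. NK cells and activated CD8+ T cells secrete Xcl1, and its receptor Xcr1 is carried by cDC1, so the pair is a known route by which cDC1 are drawn to these lymphocytes. Mature dendritic cells migrate to lymph nodes, and plasmacytoid dendritic cells (pDC) are known for type I interferon.

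Several libraries stood apart. Mouse 5 of PD-1/WT had 782 CPM (counts scaled to the library total, after TMM) of Ptprc, the CD45 gene carried by leukocytes, where the other 39 libraries had 59.9 to 371 CPM. The 9 macrophage markers summed to 8050 CPM in that tumor, to at most 4030 CPM in the others, and the 5 endothelial markers to 458 CPM, where the next library had 244 CPM. The 6 B cell markers and the 6 lymph node stroma markers (among them Ccl21a, Cxcl13 and Cr2) exceeded 20 and 10 CPM together in 5 libraries: anti-GARP:TGF-β1 FcD mouse 4, anti-GARP:TGF-β1 WT mouse 1, anti-PD-1 mouse 1, anti-TGF-β mouse 2 and mouse 5 of PD-1/TGF-β. In anti-PD-1 mouse 2, the 5 muscle markers summed to 141 CPM, against at most 13 CPM elsewhere. The libraries numbered 41 to 60 had 6.86 to 33.4 CPM of Ddx3y and at most 0.428 CPM of Xist, while those numbered 61 to 80 had 62.7 to 791 CPM of Xist. The labels give no sex, and each group has 2 or 3 mice in either part of the numbering.

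Per kilobase of exon, Fscn1 was by far the most abundant of the 10 genes (median over 40 mice, 75.2 CPM per kb), followed by Itgax (5.7), Xcl1 (2.42), Zbtb46 (2.01), Batf3 (1.8), Xcr1 (1.0), Clec9a (0.713), Siglech (0.448), Cd209a (0.418) and Flt3 (0.257 CPM per kb). Spread among the 40 mice was uneven. The highest CPM was 69.4 times the lowest for Clec9a and 33.1 times for Xcr1, but 2.14 times for Fscn1 and 1.95 times for Zbtb46. In raw counts, Cd209a ranged from 2 to 46 (median 10), Xcl1 from 7 to 36 (median 18.5) and Xcr1 from 11 to 444 (median 65.5), so single-mouse values of Cd209a and Xcl1 carry a large counting error. In bulk tumor RNA, fewer cells of a type and less RNA per cell cannot be told apart.

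**Figure D1:**
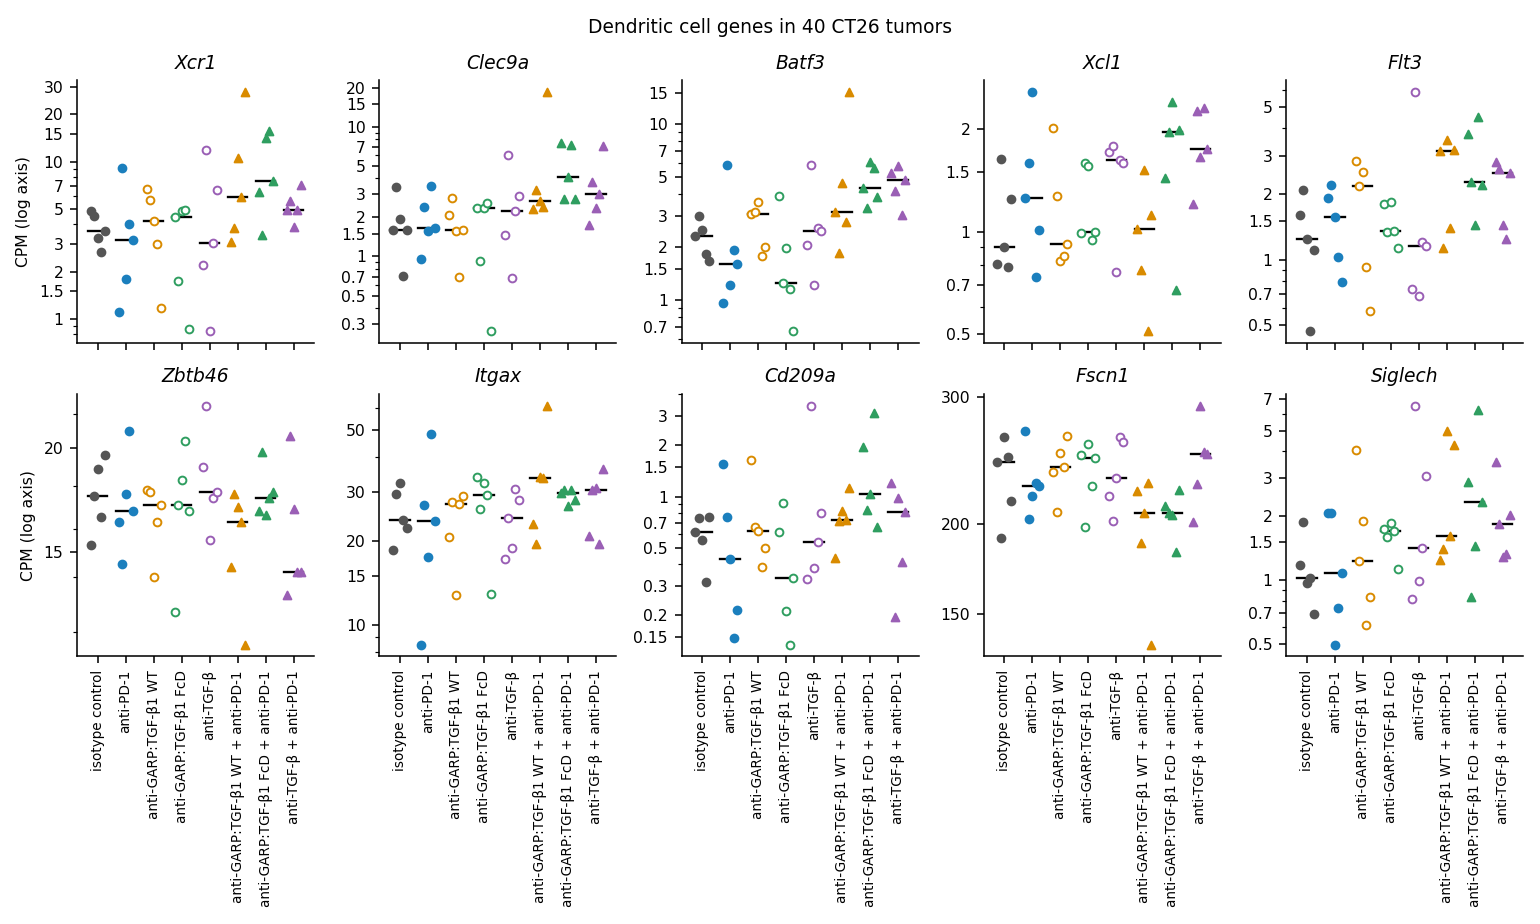
Level of each gene in CPM (log axis, a different range in each panel) for the 5 mice of each of 8 groups, with 1 point per mouse and a line at the group median. Triangles are the combinations, and mouse 5 of PD-1/WT is the highest point for Xcr1 (27.6 CPM), Clec9a (18.4 CPM), Batf3 (15.1 CPM) and Itgax (61.4 CPM) and the lowest for Fscn1 (136 CPM) and Zbtb46 (11.6 CPM).

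The receptor Xcr1 and the dead-cell receptor Clec9a are surface markers of cDC1. In the GRCm38 annotation (GENCODE vM21), Xcr1 lies at chr9:123852315-123862029 on the minus strand and overlaps no other gene, and Clec9a lies at chr6:129408862-129424763 on the plus strand, where Clec1b and Gm43914 overlap it on the same strand. Counts from the shared stretches are therefore uncertain. The 250 bases upstream of the start of both genes, which varied together in the tumors, are shown from RefSeq (GRCm38.p6), 5′ to 3′ on the gene's strand, with any motif in capitals.
Xcr1, chr9:123862030-123862279 (- strand): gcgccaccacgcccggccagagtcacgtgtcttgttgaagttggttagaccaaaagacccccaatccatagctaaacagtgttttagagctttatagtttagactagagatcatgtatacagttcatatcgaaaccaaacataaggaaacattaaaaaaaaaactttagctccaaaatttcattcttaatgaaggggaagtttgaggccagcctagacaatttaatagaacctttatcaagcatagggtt
Clec9a, chr6:129408612-129408861 (+ strand): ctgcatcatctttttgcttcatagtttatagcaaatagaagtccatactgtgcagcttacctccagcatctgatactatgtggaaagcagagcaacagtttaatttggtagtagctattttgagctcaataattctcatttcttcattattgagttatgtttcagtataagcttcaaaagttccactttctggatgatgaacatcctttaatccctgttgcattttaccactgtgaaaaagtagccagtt
None of the 3 motifs searched on both strands, AP-1 (TGANTCA), PU.1 (GAGGAAGT) and IRF (GAAANNGAA), is in either window. They are in the same window of 6.87%, 2.44% and 7.16% of 27025 genes, and G and C make up 38.8% of the Xcr1 window and 35.6% of the Clec9a window.

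In the isotype control group, Xcr1 was at 4.88, 4.48, 3.26, 2.67 and 3.6 CPM. It was at 3.06, 3.8, 10.6, 5.99 and 27.6 CPM in PD-1/WT, at 6.41, 3.39, 14.2, 15.6 and 7.5 CPM in PD-1/FcD, and at 4.93, 5.65, 3.85, 4.94 and 7.14 CPM in PD-1/TGF-β. Each combination overlapped the isotype control group, with 3, 4 and 4 of its 5 mice above all 5 controls. Monotherapies ranged from 1.11 to 9.11 CPM (anti-PD-1), 1.17 to 6.66 CPM (WT), 0.863 to 4.94 CPM (FcD) and 0.836 to 11.9 CPM (anti-TGF-β), the last from mouse 2, 1 of the libraries with lymph node markers. The log2 fold change against isotype control was 1.43 (SE 0.595) in PD-1/WT and 1.31 (SE 0.596) in PD-1/FcD, and 0.49 (SE 0.597) in PD-1/TGF-β. By edgeR's quasi-likelihood test, unadjusted p was 0.0217, 0.0343 and 0.42, and adjusted p over all genes 0.185, 0.276 and 0.655.

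Clec9a was at 1.61, 3.44, 1.94, 0.707 and 1.59 CPM in the isotype control group. In PD-1/WT it was at 2.33, 3.24, 2.66, 2.41 and 18.4 CPM, so that a single mouse lay above all controls. In PD-1/FcD it was at 7.49, 2.79, 4.09, 7.22 and 2.79 CPM, and in PD-1/TGF-β at 1.74, 3.77, 2.34, 3.05 and 7.07 CPM, with 3 and 2 mice above all controls. The log2 fold change was 1.64 (SE 0.582, unadjusted p = 0.00779, adjusted p = 0.159) in PD-1/WT, 1.39 (SE 0.583, unadjusted p = 0.0227, adjusted p = 0.258) in PD-1/FcD and 0.95 (SE 0.584, unadjusted p = 0.111, adjusted p = 0.347) in PD-1/TGF-β. All 5 mice of PD-1/FcD lay above the 5 mice given anti-GARP:TGF-β1 FcD alone (2.35, 0.919, 2.34, 2.57 and 0.266 CPM), a log2 fold change of 1.52 (SE 0.586, adjusted p = 0.159).

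Batf3, the transcription factor on which cDC1 depend, lies at chr1:191097847-191108945 on the plus strand. It was at 2.29, 2.99, 2.5, 1.81 and 1.66 CPM in the isotype control group, at 3.14, 1.85, 4.62, 2.78 and 15.1 CPM in PD-1/WT, at 4.32, 3.32, 6.09, 5.6 and 3.85 CPM in PD-1/FcD and at 5.23, 4.16, 5.74, 3.05 and 4.78 CPM in PD-1/TGF-β. All 5 mice of PD-1/FcD and of PD-1/TGF-β exceeded all 5 controls, while PD-1/WT overlapped them. Against isotype control, the log2 fold change was 1.29 (SE 0.479, adjusted p = 0.163) in PD-1/WT, 1.04 (SE 0.48, adjusted p = 0.28) in PD-1/FcD and 1.03 (SE 0.48, adjusted p = 0.228) in PD-1/TGF-β, with unadjusted p of 0.0108, 0.0369 and 0.0392. Without mouse 5 the value of PD-1/WT was 0.46 (SE 0.432). In the monotherapy groups Batf3 averaged 2.31 ± 2.02 (anti-PD-1), 2.72 ± 0.787 (WT), 1.79 ± 1.27 (FcD) and 2.82 ± 1.77 CPM (anti-TGF-β) (SD, n = 5), against 2.25 ± 0.536 CPM in the isotype control group.

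The ligand Xcl1 (chr1:164931644-164935527, minus strand, with Gm20743 overlapping on the other strand) was compared with its receptor in each group, with no test of the difference between them. It averaged 1.08 ± 0.367 CPM in the isotype control group, 0.988 ± 0.379 CPM in PD-1/WT, 1.69 ± 0.665 CPM in PD-1/FcD and 1.84 ± 0.458 CPM in PD-1/TGF-β (SD, n = 5). The 5 mice of PD-1/TGF-β were at 1.21, 2.27, 1.66, 2.31 and 1.75 CPM, 4 of them above all controls (0.786 to 1.64 CPM). The log2 fold change there was 0.77 (SE 0.337, unadjusted p = 0.028, adjusted p = 0.205), against 0.65 (SE 0.338, unadjusted p = 0.0629) in PD-1/FcD and -0.12 (SE 0.344, unadjusted p = 0.733) in PD-1/WT. PD-1/WT had the lowest mean of the 8 groups for Xcl1, with or without its mouse 5. For Xcr1 its mean was the highest with that mouse and second to PD-1/FcD without it.

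Flt3, the receptor of Flt3 ligand, lies at chr5:147330741-147400489 on the minus strand. It averaged 1.31 ± 0.601 CPM in the isotype control group, 2.47 ± 1.12 CPM in PD-1/WT, 2.83 ± 1.26 CPM in PD-1/FcD and 2.11 ± 0.722 CPM in PD-1/TGF-β (SD, n = 5). In PD-1/FcD the mice were at 3.75, 2.26, 1.44, 4.52 and 2.19 CPM, 4 of them above all controls, and the log2 fold change was 1.11 (SE 0.481, unadjusted p = 0.027, adjusted p = 0.264). Without mouse 4 of that combination it was 0.88. Flt3l, the gene of the ligand itself, was at a mean of 6.79 CPM in both PD-1/WT and PD-1/FcD and 6.9 CPM in the isotype control group, and Csf2, the GM-CSF gene, was at 0.591, 0.842 and 0.618 CPM in the same order.

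Zbtb46, a transcription factor of conventional dendritic cells that endothelial cells also express, lies at chr2:181387762-181459426 on the minus strand and was the steadiest of the set. Group means ran from 15.4 CPM (PD-1/WT) to 18.4 CPM (anti-TGF-β), and its log2 fold change against isotype control was -0.19 (SE 0.127), 0.01 (SE 0.127) and -0.15 (SE 0.127) in PD-1/WT, PD-1/FcD and PD-1/TGF-β, with unadjusted p of 0.141, 0.959 and 0.263. Itgax, the CD11c integrin of dendritic cells and of many macrophages, lies at chr7:128129547-128150657 on the plus strand. It averaged 34.3 ± 16.4 CPM in PD-1/WT, from 19.5 to 61.4 CPM, and 25.3 ± 5.57 CPM in the isotype control group (SD, n = 5), a log2 fold change of 0.44 (SE 0.309, unadjusted p = 0.161), which was 0.12 (SE 0.302) without mouse 5. In PD-1/FcD the 5 mice lay close together, from 26.8 to 30.6 CPM, all within the range of the controls (18.5 to 32.3 CPM). Itgax and Zbtb46 were the 2 of the 10 genes whose window held a searched motif, AP-1 in both. Windows end at the RefSeq start, which for Zbtb46 and Batf3 lies inside the GENCODE position given here. The Zbtb46 window is at chr2:181424389-181424638, so its motif is within that position and upstream of the RefSeq start only. The Itgax window is shown with the motif in capitals, 56 bases upstream of the start.
Itgax, chr7:128129300-128129549 (+ strand): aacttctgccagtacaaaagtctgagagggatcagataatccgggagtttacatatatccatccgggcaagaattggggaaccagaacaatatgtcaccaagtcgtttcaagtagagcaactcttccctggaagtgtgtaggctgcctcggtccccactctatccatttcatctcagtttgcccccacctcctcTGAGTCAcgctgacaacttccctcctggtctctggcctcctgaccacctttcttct
No window of the 10 genes held the PU.1 or the IRF motif.

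Cd209a, a C-type lectin of the DC-SIGN family carried by cDC2 and monocyte-derived dendritic cells, lies at chr8:3743397-3748984 on the minus strand. It was at 0.618, 0.747, 0.555, 0.314 and 0.762 CPM in the isotype control group and at 1.95, 0.83, 1.04, 3.1 and 0.664 CPM in PD-1/FcD, where 4 of 5 mice exceeded all controls. The log2 fold change was 1.33 (SE 0.594, unadjusted p = 0.0319, adjusted p = 0.273) in PD-1/FcD, 0.35 (SE 0.607, unadjusted p = 0.568) in PD-1/WT and 0.26 (SE 0.616, unadjusted p = 0.681) in PD-1/TGF-β. The difference between PD-1/FcD and PD-1/WT was not tested. In mouse 4 of PD-1/FcD, the highest of its group, the 5 adipocyte markers summed to 1060 CPM, the most of the 40 libraries, where the group ran from 84.8 CPM and the isotype control group from 30.1 to 143 CPM. All 5 adipocyte markers were higher in PD-1/FcD at an unadjusted p under 0.05, and their part in Cd209a was not tested.

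Fscn1, the actin-bundling protein of mature dendritic cells, which carcinoma cells can also express, lies at chr5:142960343-142973185 on the plus strand. It was at 222, 188, 207, 228 and 136 CPM in PD-1/WT and at 244, 191, 264, 248 and 215 CPM in the isotype control group, a log2 fold change of -0.25 (SE 0.113, unadjusted p = 0.0365, adjusted p = 0.215), and 2 of the 5 mice lay below all controls. Without mouse 5 it was -0.14. Ccr7, the chemokine receptor of mature dendritic cells, was at group means of 2.79 to 4.57 CPM. Unlike the cDC1 genes, Fscn1 varied against Ptprc among mice (r -0.627), and it is not read here as a dendritic cell marker. Its values are given under its own name only, and the cells that carried its RNA were not tested.

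Siglech, a surface lectin of mouse pDC, lies at chr7:55768178-55778925 on the plus strand. It was at 1.17, 1.87, 0.972, 1.02 and 0.693 CPM in the isotype control group, at 1.24, 1.39, 5.0, 1.61 and 4.3 CPM in PD-1/WT and at 2.88, 0.83, 1.44, 6.27 and 2.32 CPM in PD-1/FcD. The groups overlapped, and the log2 fold change was 1.24 (SE 0.552, unadjusted p = 0.0313, adjusted p = 0.205) and 1.26 (SE 0.553, unadjusted p = 0.0284, adjusted p = 0.266). Without mouse 5 of PD-1/WT the first value was 1.01 (SE 0.577, adjusted p = 0.8). Anti-TGF-β alone gave 0.816, 6.55, 0.987, 1.41 and 3.06 CPM, a log2 fold change of 1.16 (SE 0.555, unadjusted p = 0.0437, adjusted p = 1), which was 0.47 without mouse 2.

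In the order of the 8 group means, the ranges of neighbouring groups overlapped for all 7 neighbouring pairs of each of the 10 genes. PD-1/WT came first and PD-1/FcD second for Xcr1, Clec9a, Batf3 and Itgax, and PD-1/FcD first for Flt3, Cd209a and Siglech. The first place of PD-1/WT came from its mouse 5. Without that mouse, PD-1/FcD was first for all 4 of these genes, and PD-1/WT ranked 2 for Xcr1 (mean 5.85 ± 3.38 CPM, SD, n = 4), 3 for Batf3 (3.09 ± 1.15 CPM) and Itgax (27.6 ± 7.44 CPM) and 4 for Clec9a (2.66 ± 0.408 CPM). The lowest mean belonged to anti-GARP:TGF-β1 FcD alone for Xcr1, Clec9a, Batf3 and Cd209a and to the isotype control group for Flt3 and Siglech.

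Over all 10 genes and 16 contrasts, 0 of 160 values had an adjusted p under 0.05, and the lowest was 0.0963. Across all genes the share called was 0% in 15 of the contrasts and 0.00678% (1 gene) for PD-1/TGF-β against anti-PD-1. Before adjustment, p was under 0.05 (a nominal p under 0.05) for 30 values, 28 higher and 2 lower, and 29 of them were in a contrast of a combination. Against isotype control, 5 of the 10 genes passed this lower bar in PD-1/WT (4 higher, and Fscn1 lower), where 20.7% of all genes did. In PD-1/FcD 6 passed, all higher (16.6% of all genes), and in PD-1/TGF-β 2, Xcl1 and Batf3, both higher (20.1%). The median log2 fold change of the 10 genes was 0.68, 1.07 and 0.59 in these contrasts, where that of all genes was 0.01, 0.00 and 0.02. Of the monotherapies, anti-PD-1, WT and FcD had no member at a nominal p under 0.05 (0.955%, 0.969% and 0.474% of all genes), and anti-TGF-β had Siglech (2.32%). The 2 genes of PD-1/TGF-β became 0 without isotype control mouse 1 or 4, in fits for which no share of all genes was computed. The monotherapy medians were 0.04, 0.13, -0.01 and 0.43. All of these contrasts share the 5 isotype control mice.

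**Figure D2:**
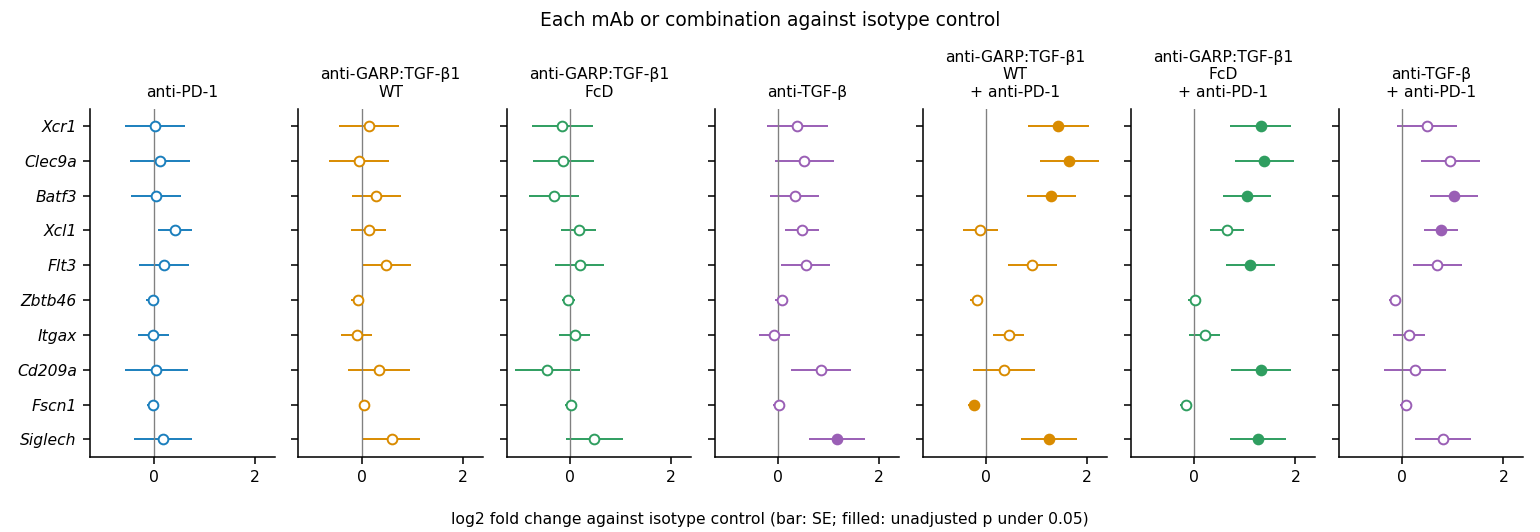
The log2 fold change against isotype control of each gene (bars, SE), with 1 panel for each of the 7 mAbs or combinations and filled points for a nominal p under 0.05. Filled points number 5, 6 and 2 in PD-1/WT, PD-1/FcD and PD-1/TGF-β and 1 in the 4 monotherapies, and none had an adjusted p under 0.05.

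Against anti-PD-1 alone, which addresses what the second mAb adds, Xcr1, Clec9a and Batf3 had a nominal p under 0.05 in PD-1/WT (17.2% of all genes did), with log2 fold changes of 1.41 (SE 0.595), 1.53 (SE 0.58) and 1.25 (SE 0.478). In PD-1/FcD the same 3 genes were at 1.29 (SE 0.595), 1.27 (SE 0.58) and 1.00 (SE 0.479), and Cd209a at 1.28 (SE 0.594), also with a nominal p under 0.05 (10.7% of all genes). In PD-1/TGF-β only Batf3 of the 10 passed this bar, at 0.99 (SE 0.479, adjusted p = 0.288, 17.1% of all genes). These 3 contrasts share the anti-PD-1 mice, in which mouse 2 had 9.11 CPM of Xcr1 and 5.86 CPM of Batf3, above the other 4 (1.11 to 3.98 CPM and 0.96 to 1.92 CPM). Without that mouse, Batf3 was at 1.95 in PD-1/WT and had an adjusted p of 0.0414, in a fit that called 538 genes in all (3.6% of those tested). Batf3 was then at 1.70 (SE 0.485) in PD-1/FcD and 1.69 (SE 0.485) in PD-1/TGF-β, and Xcr1 at 2.02 (SE 0.635), 1.90 (SE 0.634) and 1.08 (SE 0.627) in the 3 combinations. The members at a nominal p under 0.05 became 5 in PD-1/WT (25.6% of all genes), 6 in PD-1/FcD (20.2%) and 1 in PD-1/TGF-β (15.6%). Without mouse 5 of PD-1/WT, the log2 fold changes of PD-1/WT against anti-PD-1 were lower, Xcr1 at 0.61 (SE 0.568), Clec9a at 0.40 (SE 0.516) and Batf3 at 0.41 (SE 0.432).

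Against the same mAb without anti-PD-1, PD-1/WT had 4 of the 10 genes at a nominal p under 0.05 (29.5% of all genes): Clec9a at 1.71 (SE 0.582, adjusted p = 0.0963), Xcr1 at 1.29 (SE 0.591), Batf3 at 1.01 (SE 0.472) and Fscn1 at -0.29 (SE 0.113). Without mouse 5 of PD-1/WT they were at 0.58 (SE 0.516), 0.49 (SE 0.565), 0.18 (SE 0.429) and -0.18 (SE 0.103). PD-1/FcD also had 4 (20.9%): Cd209a at 1.78 (SE 0.613, adjusted p = 0.136), Batf3 at 1.36 (SE 0.486, adjusted p = 0.14), Clec9a at 1.52 and Xcr1 at 1.47 (SE 0.599). PD-1/TGF-β had 0 (9.84%), with log2 fold changes of the 10 genes from -0.59 to 0.70. Whether the effect of a mAb differed with and without anti-PD-1 was tested as an interaction. No member had a nominal p under 0.05 for anti-GARP:TGF-β1 WT (8.75% of all genes), FcD (4.49%) or anti-TGF-β (2.3%). The lowest p values belonged to Cd209a for FcD at 1.74 (SE 0.874, adjusted p = 0.787) and Clec9a for WT at 1.59 (SE 0.828, adjusted p = 0.483), so the standard errors of these differences of differences approached 1 on the log2 scale. The value of Clec9a was 0.47 (SE 0.719) without mouse 5 of PD-1/WT. Without anti-PD-1 mouse 2, Xcr1 and Batf3 had a nominal p under 0.05 for WT (18.5% of all genes) and FcD (11.1%) and Batf3 for anti-TGF-β (2.48%), with adjusted p of at least 0.239.

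The PD-1/WT values of Xcr1, Clec9a, Batf3, Itgax and Fscn1 rested largely on mouse 5. Without it, the log2 fold change against isotype control was 0.63 for Xcr1, 0.52 for Clec9a and 0.46 for Batf3. Siglech, at 1.01 from 1.24, and Flt3, at 0.80 (SE 0.509) from 0.91, moved less, and the lowest value of Siglech was 0.90, without mouse 3. With mouse 5 left out, 0 of the 10 genes had a nominal p under 0.05 against isotype control (5.85% of all genes did), anti-PD-1 or anti-GARP:TGF-β1 WT. Without that mouse, no share of all genes was computed against anti-PD-1 or anti-GARP:TGF-β1 WT. With mouse 5 of PD-1/WT and the 5 libraries with lymph node markers all left out, 6 of 10 genes had a nominal p under 0.05 in PD-1/FcD against isotype control. They were Xcr1 at 1.30 (SE 0.49), Clec9a at 1.38 (SE 0.433), Batf3 at 1.03 (SE 0.374), Flt3 at 1.10 (SE 0.399), Cd209a at 1.32 (SE 0.442) and Siglech at 1.26 (SE 0.484). In that fit 24.5% of all genes passed the same bar (15.3% higher). None of the left-out libraries is in PD-1/FcD or the isotype control group, so this fit cannot show their part in this contrast. Against anti-GARP:TGF-β1 FcD alone, Clec9a (1.71, SE 0.476, adjusted p = 0.0302) and Cd209a (1.54, SE 0.485, adjusted p = 0.0437) then had an adjusted p under 0.05, as did 1303 genes in all (8.88% of those tested in that fit). In the fit to all 40 mice, the 6 genes of PD-1/FcD became 1 without isotype control mouse 4, 2 without isotype control mouse 5, 3 without isotype control mouse 3 or PD-1/FcD mouse 1, and 1 without PD-1/FcD mouse 4, and the 4 genes against anti-PD-1 became 6 without anti-PD-1 mouse 2 and 0 without PD-1/FcD mouse 4 or without anti-PD-1 mouse 3 or 5. Except without anti-PD-1 mouse 2 (20.2%), no share of all genes was computed for these fits. These changes of count can therefore not be read as particular to the 10 genes. Without PD-1/FcD mouse 4, fold changes were lower, Siglech at 0.71 (SE 0.559), Cd209a at 0.89 (SE 0.615) and Xcr1 at 1.05 (SE 0.624) against isotype control.

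The RNA level of Ptprc, which is not a count of leukocytes, moved with these values, and the part of leukocyte content in them was not tested. Ptprc averaged 134 ± 25.8 CPM in the isotype control group, 302 ± 271 CPM in PD-1/WT (152 to 782 CPM), 240 ± 75 CPM in PD-1/FcD (107 to 282 CPM) and 152 ± 54.9 CPM in PD-1/TGF-β (93.8 to 243 CPM) (SD, n = 5). Its log2 fold change was 1.17 (SE 0.421, adjusted p = 0.159), 0.84 (SE 0.419, adjusted p = 0.305) and 0.18 (SE 0.417, adjusted p = 0.831). The summed macrophage markers, all 9 detected in every library, ran from 1650 to 2440 CPM in the isotype control group, from 1810 to 8050 CPM, 2210 to 3490 CPM and 2410 to 3050 CPM in PD-1/WT, PD-1/FcD and PD-1/TGF-β. With log2 CPM of Ptprc as a covariate, Xcr1 was at -0.14 (SE 0.292), Clec9a at 0.33 (SE 0.432) and Batf3 at 0.17 (SE 0.328) in PD-1/WT against isotype control, and at 0.18 (SE 0.291), 0.61 (SE 0.417) and 0.37 (SE 0.315) in PD-1/FcD. No member then had a nominal p under 0.05 in either contrast, and the share of all genes at that bar with the covariate was not computed. In PD-1/TGF-β, Xcr1 was at 0.36 (SE 0.277) with the covariate and 0.49 without it, Clec9a at 0.92 (SE 0.402) and 0.95, Batf3 at 0.96 (SE 0.303) and 1.03, Siglech at 0.64 (SE 0.433) and 0.80, and Xcl1 at 0.77 (SE 0.331) in both. Batf3 then had an adjusted p of 0.0443 against isotype control and of 0.0319 against anti-PD-1 (1.11, SE 0.306). With this covariate, 1308 genes in all were called in the first contrast and 1357 in the second (8.86% and 9.19% of all genes). Per 1000 counts of Ptprc, Batf3 was at 17.0 ± 4.19 in the isotype control group, 17.2 ± 3.15 in PD-1/WT, 20.8 ± 6.87 in PD-1/FcD and 33.5 ± 16.2 in PD-1/TGF-β (SD, n = 5), and Xcr1 at 28.5 ± 6.39, 31.5 ± 9.25, 38.5 ± 15.7 and 37.4 ± 10.6.

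**Figure D3:**
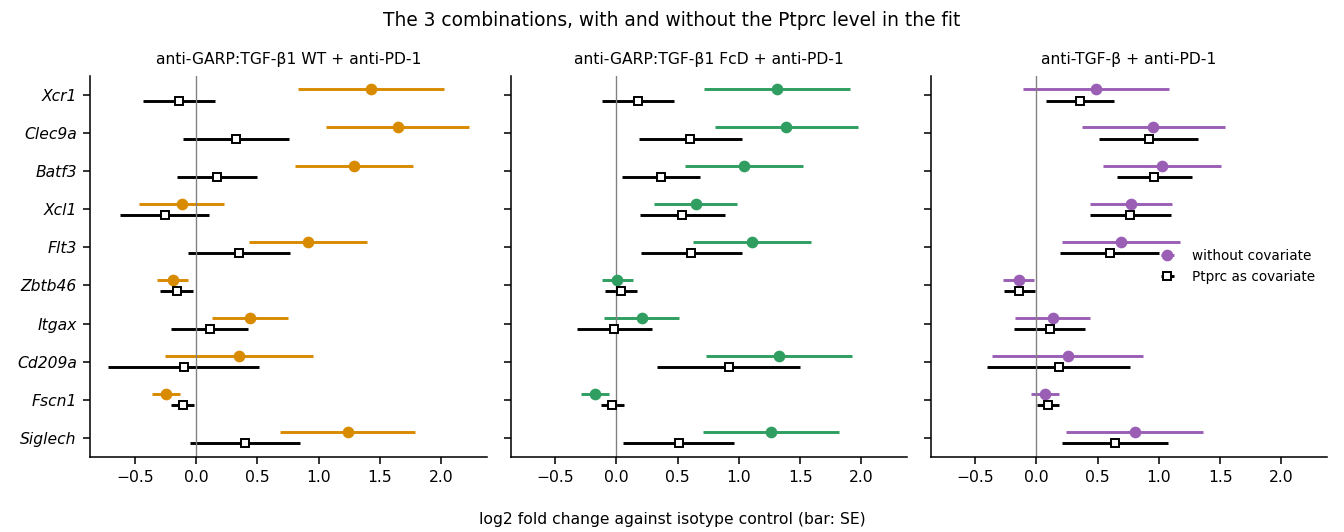
The log2 fold change against isotype control (bars, SE) in the 3 combinations, without (filled circles) and with (open squares) the Ptprc level in the fit. Xcr1 goes from 1.43 to -0.14 in PD-1/WT and from 1.31 to 0.18 in PD-1/FcD, while Batf3 goes from 1.03 to 0.96 in PD-1/TGF-β.

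Other genes were taken from lists of dendritic cell subsets, and the counts and medians here leave out the 10 genes described above. In unsorted tumor RNA the cells that carried the listed genes were not tested, so the medians do not measure dendritic cells alone. Of all genes, 13.2%, 10.7% and 8.49% were higher and 7.47%, 5.85% and 11.6% lower at a nominal p under 0.05 against isotype control in PD-1/WT, PD-1/FcD and PD-1/TGF-β, and 51.9%, 49.3% and 52.9% had a log2 fold change above 0. Without mouse 5 of PD-1/WT, 2.81% were higher, 3.04% lower and 51.3% above 0 in that combination. Against isotype control, 10 of 10 other cDC1 genes had a log2 fold change above 0 in PD-1/WT (median 0.58, 3 higher at a nominal p under 0.05) and 10 of 10 in PD-1/FcD (median 0.55, 3 higher), and 7 of 10 in PD-1/TGF-β (median 0.26, 1 higher). Without mouse 5, the cDC1 genes of PD-1/WT had a median of 0.19, with 8 of 10 above 0 and 0 at a nominal p under 0.05. No gene of any list had an adjusted p under 0.05. Irf8, a transcription factor of cDC1 and pDC, was at a mean of 143, 137 and 116 CPM in PD-1/WT, PD-1/FcD and PD-1/TGF-β and 82 CPM in the isotype control group, with log2 fold changes of 0.80 (SE 0.252), 0.74 (SE 0.252) and 0.51 (SE 0.251), adjusted p 0.159, 0.235 and 0.252. All 5 mice of PD-1/FcD exceeded all controls for Irf8. Cadm1, an adhesion molecule of cDC1, was at 0.70 (SE 0.256) in PD-1/WT, Ifi205 at 0.73 (SE 0.292) in PD-1/FcD and Naaa at 0.57 (SE 0.26) in PD-1/TGF-β. In PD-1/WT without mouse 5, Irf8 was at 0.43 (SE 0.224) and Cadm1 at 0.31 (SE 0.225).

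Of 10 other cDC2 genes, 8 were tested. Their median was 0.91 in PD-1/WT (3 higher at a nominal p under 0.05), 0.94 in PD-1/FcD (4 higher, 1 lower) and 0.52 in PD-1/TGF-β (1 lower). In each of the 3 combinations, 6 of 8 had a log2 fold change above 0. In PD-1/FcD the lowest p values belonged to Clec10a, a galactose-type lectin, at 1.79 (SE 0.569, adjusted p = 0.225) and Cd1d1, which presents lipid antigens, at 1.69 (SE 0.578, adjusted p = 0.235). In PD-1/WT they belonged to Sirpa, the receptor of CD47, at 0.91 (SE 0.332) and Irf4, a transcription factor of cDC2, at 1.22 (SE 0.528), and in PD-1/TGF-β to the transcription factor gene Klf4, at -0.45 (SE 0.143), and Clec10a, at 0.88 (SE 0.565, adjusted p = 0.372). Without mouse 5, the cDC2 median of PD-1/WT was 0.32 with 5 of 8 above 0 and 0 of 8 at a nominal p under 0.05, Sirpa at 0.28 (SE 0.275) and Irf4 at 0.53 (SE 0.511). Mgl2, another gene of the list, went the other way. It was at a mean of 1.54 CPM in PD-1/WT and 3.92 CPM in the isotype control group, and at -1.145 (SE 0.809) without mouse 5.

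Of 19 other mature dendritic cell genes, 18 were tested, with medians of 0.14, 0.35 and 0.28 in PD-1/WT, PD-1/FcD and PD-1/TGF-β (3 higher and 2 lower, 4 and 1, and 2 and 1 at a nominal p under 0.05). Ccr7 was at 0.19 (SE 0.32), 0.41 (SE 0.32) and 0.53 (SE 0.319). Cd40, the costimulatory receptor through which T cells license dendritic cells, was at 0.88 (SE 0.273, adjusted p = 0.225) in PD-1/FcD and 0.96 (SE 0.273, adjusted p = 0.126) in PD-1/TGF-β. Cd200 was at 1.61 (SE 0.476) in PD-1/FcD, Il4i1 at 1.61 (SE 0.728) in PD-1/TGF-β, and Cd274, the PD-L1 gene, at 1.31 (SE 0.412) and Socs2 at -0.50 (SE 0.16) in PD-1/WT. These moved little without mouse 5, Cd274 at 1.17 (SE 0.426) and Socs2 at -0.49 (SE 0.171), and the median of the mature list was then 0.10, with 3 higher and 1 lower.

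Of 13 other pDC genes, 12 were tested, with medians of 0.48, 0.47 and 0.35 (3, 2 and 4 higher at a nominal p under 0.05, and 2 lower in PD-1/TGF-β). The 6 B cell markers, of which 3 or more were detected in every library, were all higher in PD-1/TGF-β at a nominal p under 0.05, with 103 CPM in mouse 5 and a group median of 5.22 CPM. In PD-1/TGF-β the lowest p values were those of Bst2 at 0.60 (SE 0.161, adjusted p = 0.108) and Irf7 at 0.58 (SE 0.166, adjusted p = 0.126), both also interferon-induced in other cells. In PD-1/WT they were those of the nucleic acid sensors Tlr7 at 1.07 (SE 0.386) and Tlr9 at 1.46 (SE 0.534), which without mouse 5 were 0.32 (SE 0.323) and 0.76 (SE 0.506), with a median of the pDC list of 0.31 and 0 of 12 at a nominal p under 0.05. In PD-1/FcD they were those of Ly6d, which keratinocytes also express, at 3.58 (SE 1.37) and Klk1 at 1.13 (SE 0.45). Ly6d was at 0.288, 0, 0, 22.8 and 1.92 CPM in PD-1/FcD and at most 0.694 CPM in the isotype control group, and mouse 4 lay far above the other mice. The 6 skin markers, of which 1 to 4 were detected in each library of PD-1/FcD, summed to 2.52, 5.2, 3.05, 31 and 11.3 CPM in the same mice and to 3.65 to 5.19 CPM in the controls, and 3 of the 4 tested were higher at a nominal p under 0.05. Their part in Ly6d was not tested. Of 13 other genes of dendritic cell growth and development, 6, 6 and 0 were higher at a nominal p under 0.05, with medians of 0.78, 0.71 and 0.40. Kit, the stem cell factor receptor, was at 1.33 (SE 0.365) in PD-1/WT and 1.29 (SE 0.366) in PD-1/FcD, Spi1, the gene of PU.1, at 0.97 (SE 0.305) in PD-1/WT and Mycl at 1.63 (SE 0.55) in PD-1/FcD. Without mouse 5 of PD-1/WT, 1 of the 13 was higher in that combination (median 0.26), Kit at 0.64 (SE 0.305), with Spi1 at 0.36 (SE 0.243). In PD-1/TGF-β Spi1 was at 0.52 (SE 0.304) and Zeb2 at -0.43 (SE 0.301).

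T and NK cells release other chemokines together with Xcl1. The lowest p values in PD-1/WT were those of Ccl5 at 1.36 (SE 0.399, adjusted p = 0.159) and Ccl4 at 1.27 (SE 0.387, adjusted p = 0.159), where Xcl1 was at -0.12, and the difference from Xcl1 was not tested. Without mouse 5 they were at 0.84 (SE 0.372) and 1.03 (SE 0.393), and Xcl1 at -0.17 (SE 0.369). In PD-1/FcD Ccl5 was at 1.41 (SE 0.4) and Ccl3 at 1.49 (SE 0.43), and in PD-1/TGF-β Cxcl10, an interferon-induced chemokine, was at 0.92 (SE 0.237) and Ccl4 at 1.15 (SE 0.388). Of the 8 other chemokine and receptor genes of this list, 4, 6 and 5 had a nominal p under 0.05, all higher, in PD-1/WT, PD-1/FcD and PD-1/TGF-β, with medians of 0.78, 0.86 and 0.77. Without mouse 5 the count of PD-1/WT was 3 and its median 0.44. The 7 T cell markers, all detected in every library, which share Cd8a with the cDC1 list, summed to 23.3 to 67.7 CPM in the isotype control group and to 28.2 to 293, 26.3 to 121 and 20 to 67.9 CPM in the 3 combinations, and the 7 NK cell markers, at least 6 detected in every library, to 28.4 to 48 CPM and 45.7 to 123, 51.7 to 76.3 and 44.8 to 62.9 CPM. Their part in Xcl1 was not tested.

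To see which members varied together among mice of the same treatment, correlations were computed for the 45 pairs of members and the 10 pairs of a member with Ptprc, on log2 CPM with group means subtracted (40 mice, permutation within groups, 2-sided, adjusted over the 55). Of the 55 pairs, 21 had an adjusted p under 0.05 by both Pearson's r and Spearman's rho, 15 among members and 6 with Ptprc. The share of such pairs among other genes was not computed, so the count cannot be read as particular to these genes. Xcr1 had a higher r with Ptprc (0.889) than with any member, and Batf3 a higher r with Ptprc (0.77) than with Clec9a. The cDC1 genes moved together: r was 0.815 for Xcr1 and Batf3 (rho 0.769), 0.773 for Xcr1 and Clec9a (rho 0.746) and 0.704 for Clec9a and Batf3 (rho 0.646), with permutation p of 1e-05, 1e-05 and 7e-05 for r and 1e-05, 1e-05 and 7e-05 for rho (1e-05 is the smallest the permutations can give), and adjusted p of at most 0.0005. Among Flt3, Siglech and Cd209a, r was 0.745 for Flt3 and Siglech (rho 0.751), 0.693 for Cd209a and Siglech (rho 0.62) and 0.634 for Flt3 and Cd209a (rho 0.582), with adjusted p of 0.000137, 0.000367 and 0.0005 for r and 0.00011, 0.00044 and 0.00045 for rho. These genes were not set apart from the cDC1 genes. Siglech was related to Xcr1 (r 0.653, rho 0.659), Batf3 (r 0.571, rho 0.631) and Clec9a (r 0.481, rho 0.47), and Flt3 to Batf3 (r 0.569, rho 0.576), Xcr1 (r 0.555, rho 0.527) and Clec9a (r 0.521, rho 0.476). Itgax was related to the same 3 genes, with r of 0.62 (Clec9a, rho 0.625), 0.539 (Batf3, rho 0.484) and 0.517 (Xcr1, rho 0.458). All 9 of these pairs had an adjusted p under 0.05 by both measures, the highest being 0.0213. Xcr1 and Cd209a were related with r 0.314 (rho 0.287, adjusted p 0.18 and 0.217), which missed the threshold.

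**Figure D4:**
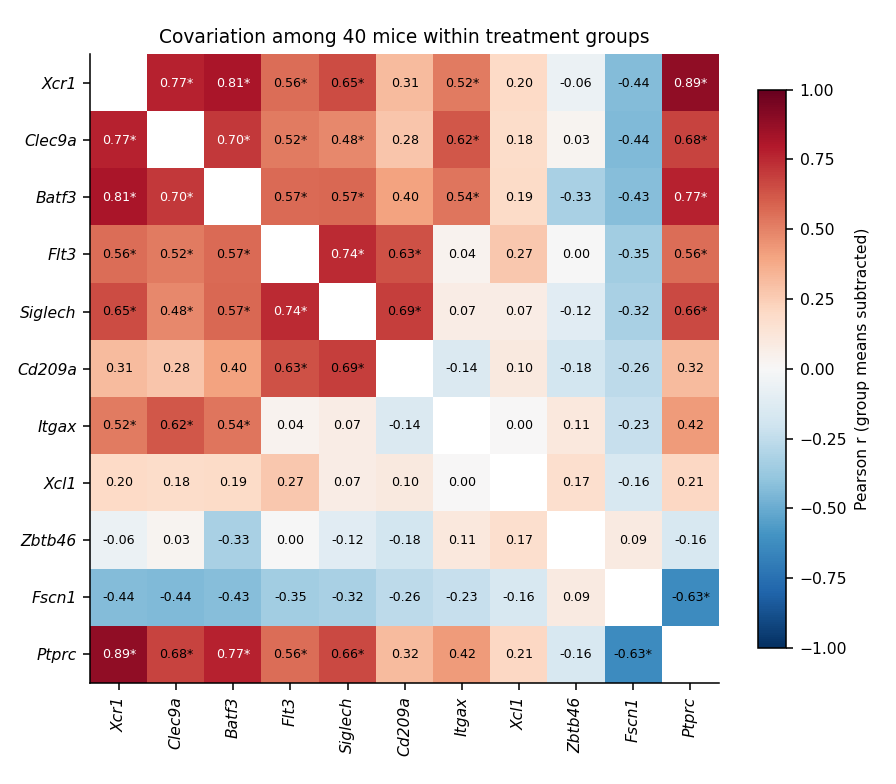
Pearson's r over 40 mice between the 10 genes and Ptprc, on log2 CPM with group means subtracted, from blue (-1) to red (1), with a star where both r and rho had an adjusted p under 0.05 over the 55 pairs. Xcr1, Clec9a and Batf3 form a block of r from 0.704 to 0.815, and Xcr1 with Ptprc is at 0.889. Xcl1 and Zbtb46 have no star, and Fscn1 has 1, negative, with Ptprc.

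Xcr1 was closest of the 10 genes to Ptprc (r 0.889, rho 0.866, permutation p 1e-05), ahead of Batf3 (r 0.77, rho 0.712), Clec9a (r 0.676, rho 0.654), Siglech (r 0.663, rho 0.696) and Flt3 (r 0.558, rho 0.562), which all had adjusted p under 0.05. Fscn1 went the other way (r -0.627, rho -0.504, adjusted p 0.000917 and 0.00852). Itgax had r 0.425 (rho 0.339, adjusted p 0.0573 and 0.12) and Zbtb46 r -0.164 (rho -0.108, adjusted p 0.484 and 0.664). Xcl1 was related to no member: with its receptor Xcr1 it had r 0.203 (rho 0.189, permutation p 0.276 and 0.289, adjusted p 0.412 and 0.409). With the 2 mice farthest from the median left out, 18 pairs passed. Within libraries 41 to 60 and 61 to 80, of 20 mice each, 2 and 1 pairs passed, with r for Xcr1 and Batf3 of 0.902 and 0.694.

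**Figure D5:**
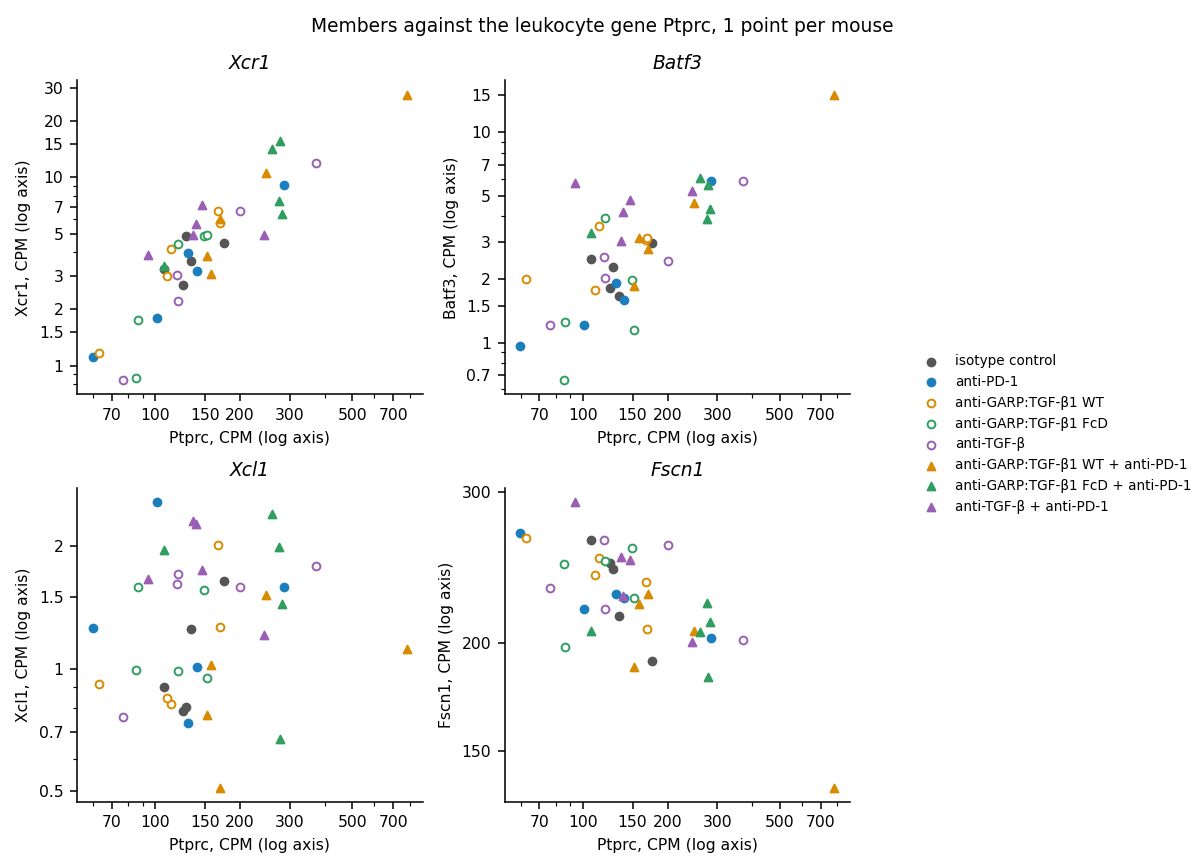
Xcr1, Batf3, Xcl1 and Fscn1 against Ptprc in CPM (both axes log), with 1 point for each of the 40 mice and triangles for the combinations. Xcr1 and Batf3 climb with Ptprc (r 0.889 and 0.77 with group means subtracted), Fscn1 declines (r -0.627), Xcl1 shows no trend (r 0.206), and the point at 782 CPM of Ptprc is mouse 5 of PD-1/WT.

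The genes whose levels over the 40 mice were most like each member were named by Spearman's rho, as a description. For Xcr1 they were Rassf2 (0.931), Ptpn6 (0.925) and Akna (0.914), and for Batf3 Irf5 (0.942), Aif1 (0.937) and Tyrobp (0.935). For Clec9a they were Gbp8 (0.858), Ppt1 (0.847) and Trpm2 (0.845), for Flt3 Pltp (0.851), Hvcn1 (0.843) and Pdlim4 (0.842), and for Siglech Dpp4 (0.813), Ldhb (0.808) and Armcx3 (0.801). Cd209a was closest to its paralog Cd209d (0.84), then to Clec10a (0.766) and Ndn (0.762), and reads shared by the paralogs could not be told apart here. For Fscn1 they were Ppp2r1a (0.902), Lmf2 (0.882) and Vars (0.879). Itgax was closest to Zmynd15 (0.75), Pkp3 (0.684) and Slc37a1 (0.68), and the values were lower for Xcl1 (Pex10 0.611, Epsti1 0.604, Tmem173 0.595) and Zbtb46 (Il1r1 0.602, Lima1 0.597, Ptgds 0.596). Without subtraction of group means, Xcr1 and Batf3 had a rho of 0.771 with each other, lower than with the genes named for either. Which cells carried the RNA of Xcr1 and Batf3 was not tested.

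Between the parts of the library numbering, 61 to 80 against 41 to 60, 0 of the 10 genes had an adjusted p under 0.05 (1.68% of all genes did), and 2 had a nominal p under 0.05 (12.5% of all genes). Itgax was higher in libraries 61 to 80 (30.7 ± 10.1 against 23.2 ± 6.55 CPM, SD, log2 difference 0.38, SE 0.146, adjusted p = 0.222) and Flt3 lower (1.64 ± 1.05 against 2.22 ± 1.16 CPM, SD, log2 difference -0.54, SE 0.238, adjusted p = 0.315). The difference between PD-1/WT and isotype control turned sign between the parts for Xcr1 (-0.44 in libraries 41 to 60 and 1.89 in 61 to 80), Batf3 (-0.11 and 1.51), Siglech (-0.16 and 1.74), Cd209a (-0.22 and 0.63), Itgax (-0.14 and 0.68) and Xcl1 (-0.34 and 0.01), and was 0.21 and 1.81 for Clec9a and 0.05 and 1.38 for Flt3 (log2, 2 against 2 mice and 3 against 3, with no test). Mouse 5 of PD-1/WT is 1 of the 3 mice of that group in 61 to 80. In PD-1/FcD the difference was above 0 in both parts for the 6 genes with a nominal p under 0.05, at 0.52 and 1.73 for Xcr1, 0.87 and 1.68 for Clec9a, 0.73 and 1.19 for Batf3 and 0.71 and 1.30 for Cd209a and 0.31 and 1.69 for Flt3. For Siglech it was 0.04 in libraries 41 to 60 and 1.96 in 61 to 80. Ptprc was at 0.05 and 1.40 in PD-1/WT and at 0.41 and 1.18 in PD-1/FcD in the same parts, and its part in these values was not tested.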

How the data were processed

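RNA-seq was measured in 40 CT26 tumors, 5 mice in each of 8 groups, grouped by the treatment in the labels. Whole-number counts per gene were deposited by the authors, made per the study's methods and the submitters' processing notes from TruSeq stranded libraries with STAR 2.5.3a, SAMtools 1.6 and HTSeq 0.9.1 on GRCm38. The annotation release and the strand setting of HTSeq are not given in the sources used here. All 40 columns of the table were used.

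Genes passing filterByExpr (14760 of 54087) were scaled by TMM and fitted over all 40 mice in edgeR 4.0.16 (R 4.3.3) with its robust quasi-likelihood test and Benjamini-Hochberg adjustment over all tested genes, and CPM values use the TMM-scaled library sizes. A call is an adjusted p under 0.05, and an unadjusted or nominal p comes from the same edgeR fit. Combinations were compared with isotype control, with anti-PD-1 and with their own mAb, and interactions were tested. SE is the fold change over the square root of F. Relations used 100000 permutations within groups. The fit was tested on simulated data.

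The 10 members and all gene lists were chosen with earlier results of these data known. From each dendritic cell list, the 2 genes with the lowest p in a combination against isotype control are named, beside Ccr7, Flt3l and Csf2, and the 3 genes with the highest rho for each member. Mgl2 is named as a cDC2 gene that went the other way in PD-1/WT. Alternatives were DESeq2 1.42.0 size factors and Wald test, no filter, only the compared groups, the library part, a non-robust fit and each mouse left out. The Ptprc covariate, leaving out libraries by marker, the order of group means without PD-1/WT mouse 5 and list values without the members or without that mouse were chosen after seeing the data. Promoter windows are from RefSeq and gene positions from GENCODE.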

Additional observations from a re-analysis of the deposited data

Results flagged for a closer look

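Of the 80 sets of 5 mice tested on log2 CPM, 1 for each gene and group, 4 held a mouse far from the other 4 of its group by Dixon's test, and chance alone flags about 1 in 20. Clec9a was at 18.4 CPM in PD-1/WT mouse 5, where the group median was 2.66 CPM. Flt3 was at 5.85 CPM in anti-TGF-β mouse 2, where the group median was 1.16 CPM. Xcl1 was at 0.76 CPM in anti-TGF-β mouse 3, the lowest of a group with a median of 1.62 CPM. Itgax was at 12.9 CPM in anti-GARP:TGF-β1 FcD mouse 5, the lowest of a group with a median of 29.2 CPM.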

How the results depend on the processing

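No paired analysis was possible because the labels give the groups no shared replicate numbers. Fold changes were recomputed for members with a nominal p under 0.05. No member was called, so keeping that side of the threshold says little. The fold changes were picked by their nominal p, so keeping their direction says little as well, and sizes moved. The direction turned in 3 of 270 fold changes without single mice left out, and in 0 of 300 with a mouse left out, where Clec9a ran from 0.52 to 1.98 in PD-1/WT against isotype control and Batf3 from 0.18 to 1.23 against anti-GARP:TGF-β1 WT (lowest without PD-1/WT mouse 5). With Ptprc as a covariate the sign turned for Xcr1 in PD-1/WT against isotype control (-0.14) and, against anti-GARP:TGF-β1 WT, for Xcr1 (-0.32) and Batf3 (-0.24), and 1 member was called in PD-1/TGF-β against isotype control and 1 against anti-PD-1 (Batf3 in both), among 1308 and 1357 genes in all. By DESeq2's Wald test, 1 member (Clec9a, adjusted p = 0.0498) was called in PD-1/WT against anti-GARP:TGF-β1 WT, among 619 genes. Without the libraries with lymph node markers and the library with the highest Ptprc, 2 were called in PD-1/FcD against anti-GARP:TGF-β1 FcD, among 1303 genes. With each mouse left out, calls ranged from 0 to 1 in PD-1/WT against anti-PD-1 (1 without anti-PD-1 mouse 2, among 538 genes) and from 0 to 1 against anti-GARP:TGF-β1 WT (Clec9a, adjusted p = 0.0465 without PD-1/WT mouse 2, among 1707 genes). Counts at a nominal p under 0.05 ranged from 0 to 6 in PD-1/WT, from 1 to 7 in PD-1/FcD and from 0 to 3 in PD-1/TGF-β against isotype control. The share of all genes was not computed for most of these fits. In PD-1/WT it was 20.7% with all mice and 5.85% without mouse 5, so the counts cannot be read as particular to the members. Within the library parts 2 and 1 pairs of relations passed, against 21 of 55 over all mice, with fewer mice in each. Low counts of Cd209a, Xcl1, Siglech and Flt3 limit what these depths can show.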
